A study of Mus musculus with 6 samples.

Results

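A set of 10 immediate early response genes, out of 37991 gene IDs in the count files, was followed across 6 mouse livers: Fos, Fosb, Jun, Junb, Egr1, Ier2, Atf3, Dusp1, Myc and Zfp36. They were taken by symbol through their Ensembl mouse gene ID, and all 10 were found. All livers were from the FVB strain at 84 days post partum. Of these, 3 were Ing5 +/+ (WT) and 3 carried 1 copy of the MommeD48 allele, Ing5 MommeD48/+ (Het). Ing5 encodes a member of the inhibitor of growth family that acts in histone acetyltransferase complexes, and the series asked what a single mutant copy does to liver RNA. The labels do not say that the livers of a genotype came from separate mice, what kind of mutation the allele carries, or how and when the mice were killed. The spread behind each p-value is thus that of these 6 samples and may be technical.

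Immediate early genes are transcribed within minutes of a stimulus from factors that are already present in the cell, without new protein synthesis. Growth factor and stress signals reach them through MAP kinases, which act on serum response factor and its partners and on CREB-type factors at their promoters. Their mRNAs are short-lived, so the level in a tissue reflects the time shortly before it was frozen, and in liver they are known for their rapid rise after partial hepatectomy, injury and handling. Fos, Fosb, Jun and Junb encode subunits of the AP-1 transcription factor, Atf3 a stress-induced relative, Egr1 a zinc-finger factor and Myc a growth regulator. Dusp1 encodes a phosphatase that switches MAP kinases off, and Zfp36 a protein (tristetraprolin) that sends mRNAs with AU-rich elements to decay.

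Promoter sequences were available in the RefSeq table (build GRCm38.p6) for 7 of the 10 genes: Fos, Fosb, Jun, Junb, Atf3, Dusp1 and Zfp36. Egr1, Ier2 and Myc had no entry. The 150 bases before the start of Fos, Dusp1 and Zfp36 are shown because Fos differed most between genotypes, while Dusp1 and Zfp36 ran in another order of livers than Fos and Egr1. Each reads 5′ to 3′ in the direction of transcription, and capitals mark matches on either strand to TGACG (the core of the cyclic AMP response element), TATAAA or the CArG box (the core of a serum response element).
Fos, chr12:85473740-85473889, plus strand: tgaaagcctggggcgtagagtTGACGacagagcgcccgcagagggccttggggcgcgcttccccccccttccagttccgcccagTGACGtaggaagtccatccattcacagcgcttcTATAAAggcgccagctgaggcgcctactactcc
Dusp1, chr17:26508473-26508622, minus strand: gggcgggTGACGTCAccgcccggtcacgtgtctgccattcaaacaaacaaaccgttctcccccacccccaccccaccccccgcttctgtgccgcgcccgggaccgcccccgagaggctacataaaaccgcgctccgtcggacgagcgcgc
Zfp36, chr7:28379229-28379378, minus strand: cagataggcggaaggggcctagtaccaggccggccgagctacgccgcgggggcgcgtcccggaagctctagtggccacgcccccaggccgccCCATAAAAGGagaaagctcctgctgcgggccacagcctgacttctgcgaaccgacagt

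In the 250 bases before the start, TGACG was found on either strand in 5 of the 7 promoters (Fos, Fosb, Junb, Atf3 and Dusp1), against 17.8% of the 32851 promoters in the table. The full palindrome TGACGTCA, which contains TGACG, was found in Dusp1 and in 1.55% of all promoters. TATAAA was found in Fos (12.4% of all), a CArG box in Zfp36 (1.47% of all), and the EGR motif GCGNGGGCG in Fosb and Zfp36 (4.70% of all). The AP-1 motif TGANTCA was found in 0 of the 7 (6.75% of all). These matches describe letters in a window and say nothing of binding in these livers.

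Total gene counts were 19840541 to 22041117 per library, so 3 counts, the most that a count of 0 allows, correspond to 0.136 to 0.151 CPM (counts scaled to library size), counting error only. Ing5 itself had 182, 228 and 191 counts in the WT and 193, 217 and 180 counts in the Het libraries. Its log2 fold change was -0.05 (SE 0.11; adjusted p = 0.9998, edgeR). Hepatocyte markers, among them Alb and Apoa1, were abundant in every library, at a summed 87887 to 110825 CPM. WT replicate 3 stood apart in its transcript lengths: the median log2 deviation of the 25% of genes with the shortest exon length exceeded that of the 25% with the longest by 0.15, against -0.096 to 0.056 in the other 5 livers. Of the 9 immediate early genes that could be tested, 5 were among those shortest 25% (Fos, Junb, Ier2, Atf3 and Myc) and 0 among the longest. Dusp1, Zfp36, Jun and Egr1 lay between.

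None of the immediate early genes passed the test for a difference between genotypes. Fosb was too scarce to be tested, and of the other 9 genes 0 passed an adjusted p of 0.05 (edgeR quasi-likelihood test, Benjamini-Hochberg over 12631 genes), where 0% of all genes passed. At an unadjusted p under 0.05 there were also 0 of 9, against 4.33% of all genes. That count was 3 without WT replicate 3 (Fos, Ier2 and Dusp1; 10.8% of all genes), 2 without Het replicate 2 (Fos and Egr1; 2.75%) and 1 without Het replicate 1 (Jun; 7.33%). It was 1, Fos, with limma-voom (4.40% of all genes), with the replicate number as a block (4.77%) and without a low-count filter (3.67%). The adjusted p was 0.9998 for each of the 9 (edgeR). With DESeq2 0 of the 9 passed, against 0.103% of all genes, and with limma-voom 0. Het values lay above WT for 4 genes and below for 5 (50.3% of all genes lay above). The median log2 fold change of the 9 genes was -0.05, beside 0.00088 over all genes tested. In 0 of 9 genes did the 3 Het livers lie wholly on 1 side of the 3 WT livers, which was the case for 8.99% of all genes.

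**Figure D1:**
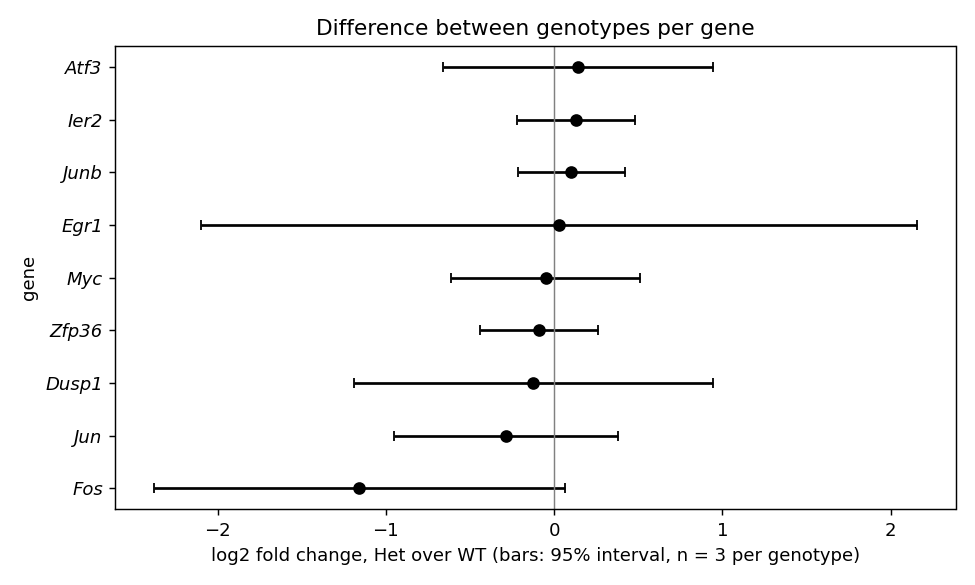
Log2 fold change of Het over WT for the 9 genes tested (points) with 95% intervals (bars), 3 livers per genotype. Every interval contains 0, and those of Egr1, Fos and Dusp1 are the widest.

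Fos, whose protein pairs with JUN proteins in AP-1, was scarce and had the lowest value of the 9 fold changes. It had 21, 20 and 10 counts in the WT livers and 4, 16 and 3 counts in the Het livers, or 1.01, 0.907 and 0.514 CPM against 0.191, 0.736 and 0.146 CPM. WT replicates 1 and 2 were highest, but Het replicate 2 lay above WT replicate 3, so the genotypes overlapped. Het over WT gave a log2 fold change of -1.16 (SE 0.54, 95% interval -2.38 to 0.067; unadjusted p = 0.0613, adjusted p = 0.9998, edgeR quasi-likelihood test). Leaving out Het replicate 2 gave -2.23 and leaving out WT replicate 3 gave -1.39, and in both cases the remaining Het livers lay below the remaining WT livers (15.7% and 29.1% of all genes did not overlap then). Leaving out Het replicate 3 gave -0.80. At the mean counts of the WT and Het livers, counting alone gives a single library an error of 24.3% and 36.1%.

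Fosb, a FOS relative that is induced in the same way, was at the limit of detection. Its counts were 0, 2 and 3 in the WT livers and 1, 3 and 1 in the Het livers, a sum of 5 in each genotype. Every value was at or below 3 counts, so no fold change is given.

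Jun, the AP-1 subunit that can also pair with itself, had 7.94, 6.08 and 9.66 CPM in the WT livers and 9.42, 5.01 and 4.93 CPM in the Het livers. Het replicate 1 was close to WT replicate 3, the highest, while the other Het livers were the lowest of the 6. This gave a log2 fold change of -0.29 (SE 0.29, 95% interval -0.95 to 0.38). Without Het replicate 1 it was -0.66, with the remaining Het livers below all WT livers (23.9% of all genes did not overlap then), and the adjusted p was 0.448 (edgeR).

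Junb, a JUN relative, was the steadiest of the AP-1 genes. It had 8.23, 12.1 and 11.3 CPM in the WT livers and 10.9, 11.9 and 11.2 CPM in the Het livers. Apart from WT replicate 1, the livers lay within 10.9 to 12.1 CPM. Its log2 fold change was 0.10 (SE 0.14), with the narrowest 95% interval of the 9 on the log2 scale, -0.22 to 0.42 (a fold of 0.860 to 1.34). Without WT replicate 1 the log2 fold change was -0.052.

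Atf3, a transcription factor of the ATF family that stress induces, had 16, 19 and 8 counts in the WT livers and 17, 20 and 11 counts in the Het livers. This was 0.681 ± 0.238 CPM for WT against 0.756 ± 0.198 CPM for Het (SD, n = 3). WT replicate 3 was lowest and Het replicate 3 next, and the genotypes overlapped (log2 fold change 0.14, SE 0.36, which turned to -0.11 without WT replicate 3 and -0.025 without Het replicate 2). Its spread of 35.0% in WT and 26.1% in Het livers was close to the counting error of 26.4% and 25.0%.

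Egr1, a zinc-finger factor that binds GC-rich promoters, had close means in both genotypes, 5.20 ± 1.66 CPM for WT against 5.29 ± 5.54 CPM for Het (SD, n = 3), and the widest interval. It had 4.91, 6.99 and 3.70 CPM in the WT livers and 2.25, 11.7 and 1.95 CPM in the Het livers. The highest and both lowest livers were Het, so the range of the WT livers lay inside that of the Het livers. Its log2 fold change of 0.029 had an SE of 0.81 and a wide interval (95% interval -2.10 to 2.16), which covers a fold of 0.233 to 4.46. Without WT replicate 1 or 3 it was -0.018 or -0.16. Without Het replicate 2 it was -1.31 (SE 0.29; unadjusted p = 0.00161, adjusted p = 0.9995, edgeR quasi-likelihood test), with both remaining Het livers below all WT livers. Without Het replicate 2, 15.7% of all genes did not overlap between genotypes.

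Myc, which drives growth and ribosome production, had 2.60, 2.18 and 3.80 CPM in the WT livers and 2.82, 3.31 and 2.10 CPM in the Het livers. The genotypes overlapped over nearly the whole range, at a log2 fold change of -0.05 (SE 0.25, 95% interval -0.61 to 0.51). It turned to 0.20 without WT replicate 3 and 0.11 without Het replicate 3. Ier2, a nuclear protein of the immediate early class, had 12.3, 11.4 and 16.5 CPM in the WT livers and 15.2, 16.2 and 12.5 CPM in the Het livers. WT replicate 3 was highest and the other WT livers lowest (log2 fold change 0.13, SE 0.15). Without WT replicate 3 all Het livers lay above the WT livers (29.1% of all genes did not overlap then), at a log2 fold change of 0.31 (adjusted p = 0.430, edgeR).

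Dusp1, the MAP kinase phosphatase, had 10.8, 8.67 and 23.5 CPM in the WT livers and 14.4, 10.2 and 14.8 CPM in the Het livers. WT replicate 3 stood above all others, and the other WT livers were among the 3 lowest. Its log2 fold change was -0.12 (SE 0.42, 95% interval -1.19 to 0.94), and it was 0.43 without WT replicate 3 and 0.032 without Het replicate 2. Zfp36, the mRNA decay factor, had 49.96, 42.0 and 63.0 CPM in the WT livers and 48.8, 42.2 and 54.6 CPM in the Het livers. WT replicate 3 was again highest and Het replicate 3 second, at a log2 fold change of -0.09 (SE 0.15, 95% interval -0.44 to 0.26). It was 0.077 without WT replicate 3 and 0.0011 without Het replicate 2.

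**Figure D2:**
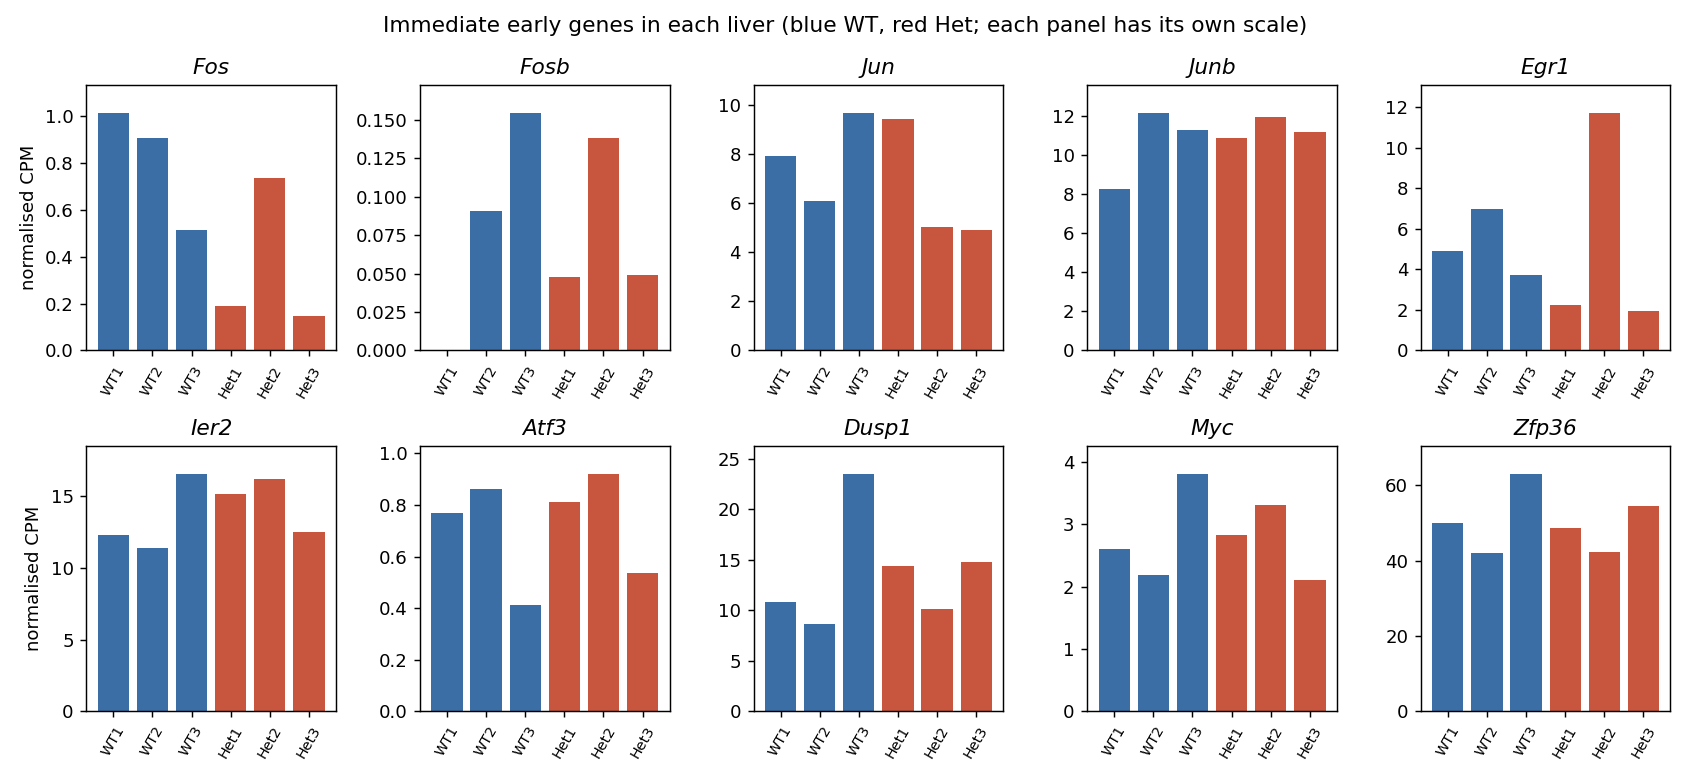
Normalised CPM of each gene (bars, each panel from 0 on its own scale) in the 3 WT livers (blue) and 3 Het livers (red), where WT1 is WT replicate 1. Egr1 reaches 11.7 CPM in Het replicate 2 against 1.95 CPM in Het replicate 3, while Dusp1 reaches 23.5 CPM in WT replicate 3.

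The intervals set how large a difference remains possible. For 6 of the 9 genes, the 95% interval lay within a 2-fold change in either direction, and for Junb, Ier2 and Zfp36 within 1.5-fold. Fos, Egr1 and Dusp1 had intervals that reach beyond 2-fold, so these 3 livers per genotype do not exclude a 2-fold difference for them.

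Compared per kilobase of exon, the inhibitor Zfp36 was the most abundant of the 10 genes and Fosb the least. Zfp36 had 14.4 CPM per kilobase on average over the 6 livers (12.1 to 18.2), followed by Ier2 with 9.21 (7.48 to 10.9), Junb with 4.75 (3.58 to 5.26) and Dusp1 with 4.14 (2.62 to 7.09). Jun had 2.25 (1.54 to 3.03), Egr1 1.17 (0.435 to 2.61), Myc 1.03 (0.772 to 1.40), Atf3 0.334 (0.191 to 0.427), Fos 0.248 (0.0622 to 0.430) and Fosb 0.0128 (0 to 0.0247). Junb and Dusp1, Dusp1 and Jun, Jun and Egr1, Egr1 and Myc, and Atf3 and Fos overlapped in their ranges over livers. Zfp36, Ier2 and Fosb did not overlap with their neighbours, nor did Myc with Atf3.

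Some of these genes varied widely between livers, also within a genotype. Over all 6 livers, the highest value was at least 2-fold the lowest for 4 of the 9 tested genes, against 13.1% of all genes tested. These were Fos (6.91-fold), Egr1 (5.99-fold), Dusp1 (2.71-fold) and Atf3 (2.24-fold). The lowest Fos value was the 3 counts of Het replicate 3, the most that a count of 0 allows. The size of the Fos ratios, here and among the Het livers, is thus uncertain. That of Atf3 rests on 8 to 20 counts. Among the WT livers alone, Dusp1 (2.71-fold) and Atf3 (2.10-fold) reached 2-fold (6.33% of all genes), and among the Het livers Egr1 (5.99-fold) and Fos (5.03-fold) did (5.68% of all genes). The count of 4 fell to 2 without WT replicate 3, when Dusp1 and Atf3 no longer reached 2-fold. At the other end, Ier2, Junb and Zfp36 had ratios of 1.45, 1.47 and 1.4997 over the 6 livers.

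The same was seen with the biological coefficient of variation of the fit, which takes out counting error. It lay above the trend for genes of like abundance in 8 of the 9 genes, where 25.0% of all genes lay above it. Egr1 had 0.665 against a trend of 0.141, Dusp1 0.350 against 0.114, Fos 0.323 against 0.191 and Jun 0.237 against 0.131. Atf3, at 0.184 against 0.190, was the exception. As a description, the SD within genotypes of log2 (CPM + 0.5) was 0.96 for Egr1, and 0.317% of the 1263 genes in the same 10% band of abundance had a larger one. This share was 1.43% for Dusp1, 3.33% for Jun, 6.17% for Fos, 8.16% for Zfp36 and 38.5% for Atf3.

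**Figure D3:**
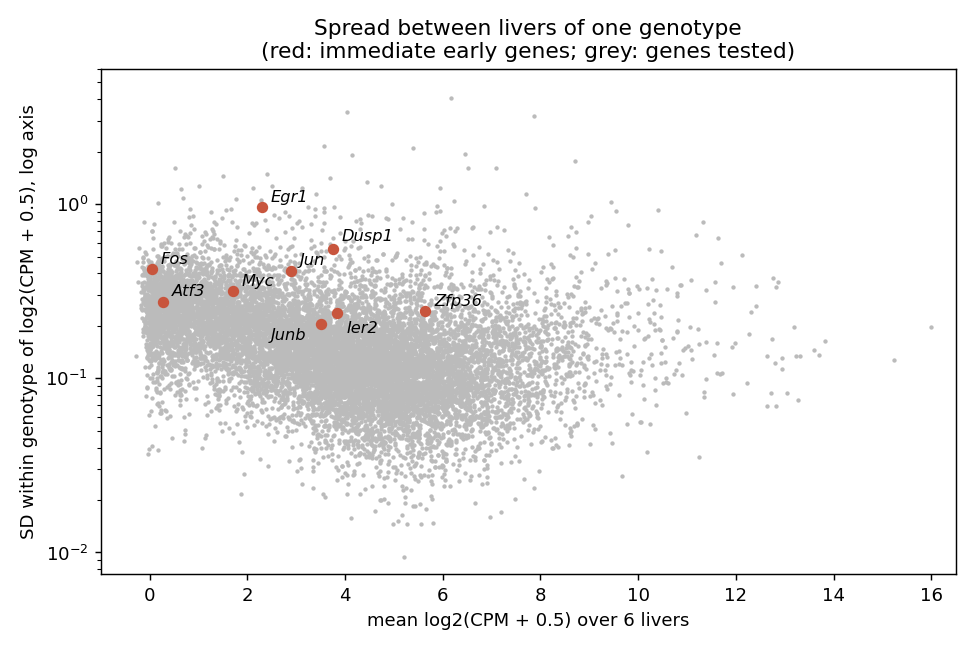
SD of log2(CPM + 0.5) within genotypes (vertical, log axis) against mean log2(CPM + 0.5) over the 6 livers (horizontal) for the genes tested (grey) and the immediate early genes (red). Egr1 at 0.96 and Dusp1 at 0.55 sit at the upper edge of genes of their abundance, and Atf3 lies within the bulk.

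The genes did not share a single order of livers. The grouping that follows was made after the values were seen and is a description. Egr1 and Fos were highest in the same 3 livers, WT replicates 1 and 2 and Het replicate 2, and lowest in Het replicates 1 and 3. Dusp1 and Zfp36 were highest in WT replicate 3 and Het replicate 3 and lowest in WT replicate 2 and Het replicate 2. Het replicate 2 thus had the highest Egr1 (11.7 CPM) and the second lowest Dusp1 (10.2 CPM), and WT replicate 3 the highest Dusp1 (23.5 CPM) with an Egr1 of 3.70 CPM. Jun was high in WT replicate 3 and Het replicate 1, while Ier2 and Myc were highest in WT replicate 3 followed by Het replicate 2.

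The livers with high Egr1 and Fos were also those with the most RNA of Kupffer cells, the resident macrophages of the liver. The 9 Kupffer cell markers summed to 244, 233 and 134 CPM in the WT livers and 193, 263 and 150 CPM in the Het livers. All 9 were detected in every library. Het replicate 2 and WT replicates 1 and 2 were the 3 highest, as for Egr1 and Fos. Below these the orders differed: WT replicate 3 had the lowest Kupffer sum but more Egr1 and Fos than Het replicates 1 and 3. Among the markers, the scavenger receptor gene Marco had 2.41, 2.90 and 0.668 CPM in the WT livers and 1.77, 4.60 and 1.61 CPM in the Het livers. Timd4 alone of the 9 markers did not have the same 3 livers highest. It had 5.58, 6.26 and 3.39 CPM in the WT livers and 6.31, 7.08 and 4.19 CPM in the Het livers. In bulk liver, fewer cells of a type and less RNA per cell cannot be told apart, and the part of these cells in the Egr1 and Fos values was not tested. The Kupffer sum had close means, 203.5 ± 60.6 CPM for WT and 202 ± 57.2 CPM for Het (SD, n = 3), and its difference between genotypes was not tested.

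**Figure D4:**
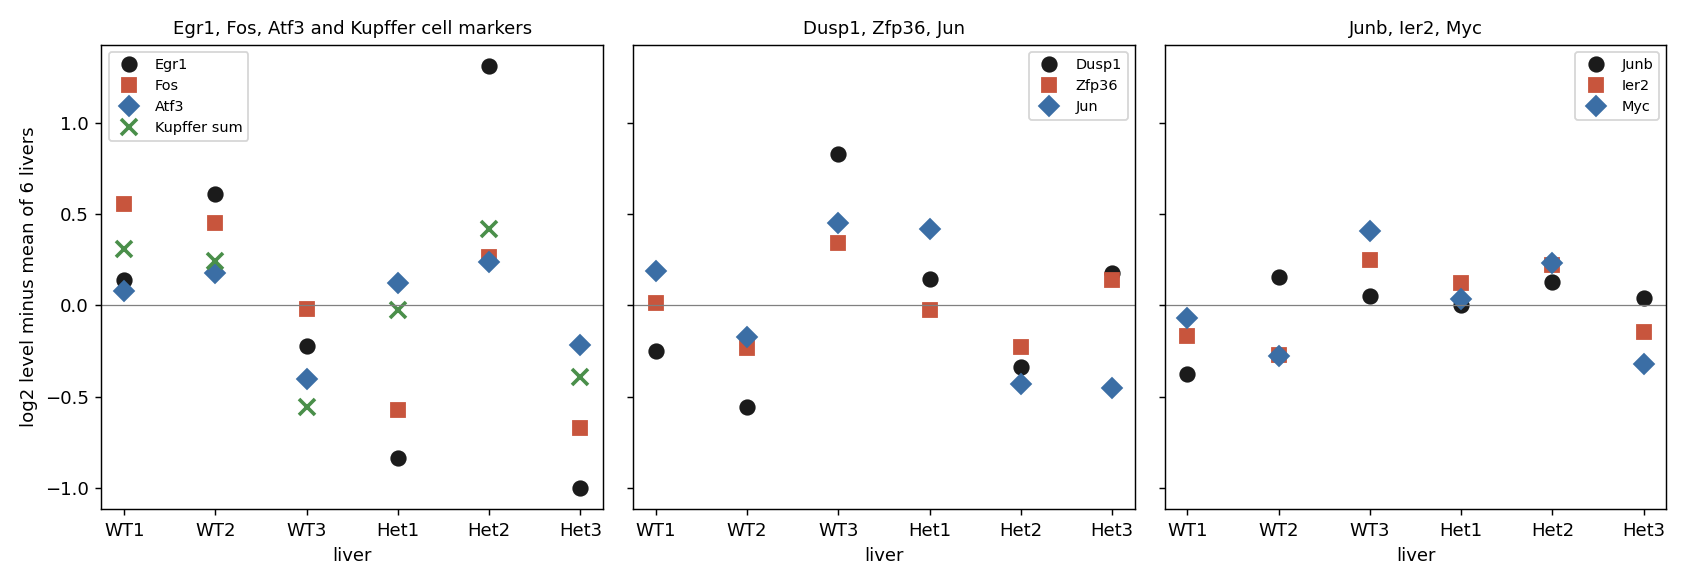
Log2(CPM + 0.5) of each gene in each liver minus its mean over the 6 livers, with the log2 summed CPM of the 9 Kupffer cell markers treated the same way (crosses). Egr1, Fos and the Kupffer markers are above 0 in WT1, WT2 and Het2, while Dusp1 and Zfp36 are above 0 in WT3 and Het3 and below it in WT2 and Het2.

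Of the other cell type lists, none had the same 3 livers highest. Sinusoidal endothelial markers summed to 130.5 to 172 CPM over the 6 livers, stellate cell markers to 183 to 318 CPM and cholangiocyte markers to 26.9 to 33.6 CPM. Neutrophil markers summed to 1.54 to 3.40 CPM with 3 of 7 at 0 in at least 1 library, lymphocyte markers to 1.80 to 3.82 CPM, and erythroid markers to 22.5 to 40.4 CPM, nearly all of it Alas2, with 3 of 4 at 0 in at least 1 library. None of these cell type lists, nor the Kupffer or hepatocyte list, held a gene that passed the test between genotypes.

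Among 11684 other genes with a mean log2 CPM of at least 0, those most like Egr1 over the 6 libraries, by Pearson correlation of log2 (CPM + 0.5), were Fyb, Sox13, Pkm, Adam15 and Nptn, with r of 0.972 to 0.987. Fyb, the first of these, encodes an adaptor of T cells and myeloid cells. It had 3.61, 3.99 and 3.44 CPM in the WT livers and 2.96, 4.37 and 2.73 CPM in the Het livers. Most like Fos were Ncf4, Itm2c, Arl8a, Por and Crim1, with r of 0.964 to 0.984. Ncf4, the first of these, encodes a subunit of the phagocyte NADPH oxidase. It had 1.40, 1.497 and 1.08 CPM in the WT livers and 0.717, 1.20 and 0.732 CPM in the Het livers. Por, the most abundant of these, had 372, 344 and 331 CPM in the WT livers and 281, 361 and 271 CPM in the Het livers. The r values are the highest of 11684 correlations over 6 points each and are given as a description.

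No other gene of the pathway passed the test. Of 37 further rapidly induced genes 30 were tested, of which 8 were higher and 22 lower in Het livers (median log2 fold change -0.09), and 0 passed. Per1, a clock gene that glucocorticoids and cyclic AMP induce, had the smallest p, with 46.1, 32.8 and 42.7 CPM in the WT livers and 30.9, 24.4 and 30.9 CPM in the Het livers. All its Het values lay below the WT values (log2 fold change -0.50, SE 0.14; unadjusted p = 0.00668, adjusted p = 0.9998, edgeR quasi-likelihood test). Plk2, a polo-like kinase gene, had 12.4 ± 0.746 and 10.6 ± 0.569 CPM (SD, n = 3), and the highest CPM of the list were those of Bhlhe40 and Mcl1. Egr2, Egr3, Nr4a3 and Arc, induced by many of the same stimuli, were too scarce to be tested.

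Of 21 AP-1, ATF and CREB relatives 16 were tested, 8 higher and 8 lower in Het livers, and 0 passed. Fosl2, a FOS relative, had 4.37 ± 0.840 CPM for WT and 3.51 ± 0.474 CPM for Het, and Creb1 17.8 ± 0.493 and 20.04 ± 0.483 CPM (SD, n = 3; log2 fold change 0.17, SE 0.08). The relatives with the highest CPM were Creb3l3 and Atf5, both enriched in liver. In 0 of these 16 genes did the 6 livers span 2-fold, against 4 of the 9 immediate early genes and 13.1% of all genes. A wide span was not particular to the immediate early genes. It was seen in 7 of the 30 further rapidly induced genes tested, with Gadd45g at 8.07-fold. The same held for 6 of 9 Kupffer cell markers, 6 of 9 glucocorticoid-responsive genes and 15 of 19 acute-phase genes.

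Upstream of the 10 genes lie the receptors, RAS and RAF proteins and MAP kinases. All 25 genes of that list were tested, 17 higher and 8 lower, with a median log2 fold change of 0.027, and 0 passed or spanned 2-fold over the livers. The epidermal growth factor receptor gene Egfr ranged most among those named, with 671, 579 and 363 CPM in the WT livers and 560, 406 and 681 CPM in the Het livers. A list of 9 factors, with Srf, its partners Elk1, Elk3, Elk4, Mrtfa and Mrtfb, the CREB coactivator gene Crtc2 and the general coactivator genes Crebbp and Ep300, gave 6 higher and 3 lower (median 0.041), and 0 passed. Elk4 had the smallest p of these, at a log2 fold change of -0.15 (SE 0.10).

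Feedback inhibitors of the pathway had 12 of 14 genes tested, 3 higher and 9 lower (median -0.05), and 0 passed. Errfi1, an inhibitor of the epidermal growth factor receptor and the one with the highest CPM, had 926 ± 187 CPM for WT and 800.3 ± 144 CPM for Het (SD, n = 3). The 14 factors of AU-rich element decay, the machinery that ZFP36 recruits, gave 7 higher and 7 lower (median 0.043), and 0 passed. Zfp36l1, a close relative of Zfp36, had 87.5, 114 and 110.2 CPM in the WT livers and 136, 119 and 99.8 CPM in the Het livers.

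In the network of MYC and its partner MAX, 11 of 12 genes were tested, 5 higher and 6 lower (median -0.10). None passed, and 4 of the 11 had an unadjusted p under 0.05 (2 higher and 2 lower), against 4.33% of all genes. The list was chosen with earlier results of these data known, so this count is only a description. Mycl, a MYC relative, had 6.74, 7.17 and 6.73 CPM in the WT livers and 5.35, 3.31 and 4.19 CPM in the Het livers, with the Het values all lower (log2 fold change -0.68, SE 0.17; unadjusted p = 0.00302, adjusted p = 0.9998, edgeR quasi-likelihood test). Max itself had a log2 fold change of -0.28 (SE 0.11). Mxd1 and Mxi1, which encode MAX partners that oppose MYC and were added after their values were seen, had 0.29 (SE 0.12) and 0.20 (SE 0.09). Mnt and Mxd4 of the same list did not go with them, at -0.15 (SE 0.13) and 0.015 (SE 0.10).

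States that can move immediate early genes also varied between livers. Acute-phase genes summed to 30070, 47994 and 16799 CPM in the WT livers and 27165, 19901 and 18012 CPM in the Het livers. WT replicates 1 and 2, also high in Egr1 and Fos, had the 2 highest sums. Het replicate 2, highest in Egr1, was not among the 3 highest. Of these 19 genes 18 were lower in Het livers (median log2 fold change -0.55, beside 0.00088 over all genes) and 0 passed, while without WT replicate 2, the liver with the highest sum, 13 were lower (median -0.082). Heat shock chaperones summed to 480 to 615 CPM, highest in WT replicate 3, and clock genes to 895 to 982 CPM. Hspa8 (286 to 378 CPM) held the largest part of the heat shock sum. Hspa8, Dnajb1 and Bag3 were highest in WT replicate 3. Hspa1a and Hspa1b were instead highest in Het replicate 1, the liver with the lowest sum, at 2.15 and 8.27 CPM. Glucocorticoid-responsive genes summed to 3812, 3014 and 3457 CPM in the WT livers and 2513, 1824 and 3477 CPM in the Het livers, with 7 of 9 lower in Het livers and 0 passing. Pck1 (894 to 2354 CPM) and Tat (500 to 1067 CPM) made up most of each sum. Tsc22d3 and Sgk1 were the 2 higher genes, at log2 fold changes of 0.07 and 0.30. None of the genes of these 4 lists passed, except that without WT replicate 3 the serum amyloid gene Saa4, named after its value was seen, did. Per1 counts in 3 of the lists described here. Their part in the spread of the immediate early genes was not tested.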

How the data were processed

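Poly(A) RNA libraries from 6 livers were made with an Illumina TruSeq kit, per the labels' protocols. The deposited values are raw whole-number counts per Ensembl gene ID. The submitters' processing notes name TopHat2 2.0.11, HTSeq 0.6.1, DESeq and mm9, without their role. The annotation release and strand setting are not given in the sources used here, so reads of an overlapping antisense gene may be included. Symbols matched 32919 of 37991 IDs. No library was a copy of another (lowest chi-square per degree of freedom 9.33).

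The tests used edgeR 4.0.16 under R 4.3.3: filterByExpr by genotype (12631 genes), TMM (factors 0.977 to 1.02), robust quasi-likelihood fit with genotype as sole factor, Benjamini-Hochberg over all genes, threshold 0.05. SE and intervals come from the F statistic. CPM are TMM-normalised. Exon lengths are GENCODE M21 unions (another build, used for length only). Promoters were read from RefSeq, GRCm38.p6. The fit was tested on simulated counts.

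Alternatives were DESeq2 1.42.0, limma-voom (limma 3.58.1), DESeq2 size factors, other low-count filters, library sizes without the 20 most abundant genes, the newer edgeR fit, a replicate block and each library left out. The genes named were the 10, Ing5, the 2 smallest p and 2 most abundant genes of each list where space allowed, and the 5 most like Fos and Egr1. Marco is such a gene, and Mxd1, Mxi1, Mnt and those under other observations were added after their values were seen. Members and lists were chosen with earlier results of these data known.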

Additional observations from a re-analysis of the deposited data

How the results depend on the processing

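No immediate early gene passed under any alternative run. Over all genes the count of 0 was 1 without a low-count filter (701 at an unadjusted p under 0.05) and 13 with DESeq2. It ran from 0 to 17 with a library left out, 17 without WT replicate 3 and 10 without Het replicate 1. With the replicate number as a block 0 genes passed, and Egr1 turned to a log2 fold change of -0.28. The lowest adjusted p over all genes was 0.088 with the block and 0.529 without it (edgeR). Same-numbered deviations correlated at -0.025, -0.078 and 0.22, and other pairs at -0.22 to 0.25. WT replicate 3 and Het replicate 3 correlated best with each other, but not every liver did so with its own number. With 3 livers per genotype these values cannot decide whether equal numbers mark a pair. With limma-voom Egr1 turned to -0.42 and Dusp1 to 0.0060. The count of genes spanning 2-fold ran from 2 to 4 with a library left out. The count whose genotypes did not overlap ran from 0 to 2: Fos and Ier2 without WT replicate 3 (29.1% of all genes), Fos and Egr1 without Het replicate 2 (15.7%) and Jun without Het replicate 1 (23.9%). Log2 fold changes ran with a library left out from -2.23 to -0.80 for Fos, -1.31 to 0.42 for Egr1, -0.39 to 0.43 for Dusp1, -0.22 to 0.20 for Myc, -0.11 to 0.35 for Atf3, -0.22 to 0.077 for Zfp36, -0.052 to 0.22 for Junb, -0.66 to -0.12 for Jun and 0.024 to 0.31 for Ier2. The count of acute-phase genes lower in Het livers, an alternative chosen after seeing the data, ran from 13 to 18 of 19 with a library left out. Fos and Atf3 could not be fitted under the filter at a CPM above 1 in 3 libraries. Depth limits Fos, Fosb and Atf3, which had at most 21 counts in any library.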

Other observations

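Some rapidly induced or fasting-linked genes had their highest value in WT replicate 3 or Het replicate 3, the livers highest in Dusp1 and Zfp36. They were chosen after their values were seen and are given as values. Sik1, a salt-inducible kinase gene of the cyclic AMP response, had 20.2, 20.5 and 35.8 CPM in the WT livers and 21.5, 17.2 and 27.7 CPM in the Het livers. Gadd45g, a growth arrest gene, had 2.89, 1.41 and 11.4 CPM in the WT livers and 1.43, 4.83 and 8.24 CPM in the Het livers. G6pc, the glucose-6-phosphatase gene that fasting induces, had 124, 103 and 268 CPM in the WT livers and 142, 70.9 and 199 CPM in the Het livers. Tsc22d3, a glucocorticoid-induced gene, had 81.0, 62.0 and 105 CPM in the WT livers and 75.2, 74.6 and 110.3 CPM in the Het livers. WT replicate 3 and Het replicate 3 held both highest values of each of these 4 genes. Fkbp5, another glucocorticoid-induced gene, had its lowest values in the same livers, at 36.8 CPM in WT replicate 3 and 37.4 CPM in Het replicate 3, against 68.6 to 107 CPM in the other 4. Of the other glucocorticoid-responsive genes listed, Tat and Sgk1 were also highest in these livers, and Mt2 was lowest there. Pck1, Zbtb16 and Per1 were highest in WT replicate 1, at 2354, 11.6 and 46.1 CPM. Zbtb16 was lowest in WT replicate 3, at 1.54 CPM. Socs3, the feedback inhibitor that interleukin 6 induces, was highest in WT replicate 2, at 11.5 CPM against 4.19 to 6.31 CPM elsewhere, and its lowest values were again in WT replicate 3 and Het replicate 3.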
